A study of Caenorhabditis elegans with 2 samples.

Results

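On the autosomes of first-stage (L1) Caenorhabditis elegans larvae, 853 of the 8751 peaks in the optimal BLMP-1 peak list (9.75%) lay outside every annotated gene and between 500 and 1500 bp upstream of the nearest protein-coding transcript start. The summit, the position of highest signal within a peak, decided membership. A member had a summit more than 500 and at most 1500 bp from the start, with the start downstream of it on the strand of that gene, which is called the target here only because its start is nearest. Summits on chromosome X were left out, and 208 of them met the same distance rule and served for comparison. The other comparison sets were 1968 autosomal intergenic summits at most 500 bp upstream of a start and 1049 that lay more than 1500 bp upstream. Members made up 12.3% of the 6961 autosomal summits. Within the optimal list, distance and gene position alone chose them, with no use of peak strength, replicate support or sequence. The list itself was made from both replicates and holds the 8751 strongest of the 30000 pooled peaks.

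The chromatin came from whole L1 larvae of strain OP109, with both sexes pooled. The worms carried the wgIs109 transgene, an eGFP-tagged blmp-1, together with unc-119(ed3) on chromosome III. There were 2 biological replicates, numbered 1 and 2, of this single group and no other condition. The material was whole animals and the tagged protein came from a transgene, so a peak cannot be assigned to a tissue, and untagged BLMP-1 was not measured separately.

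BLMP-1 is a zinc-finger transcription factor and the worm homolog of the mammalian repressor Blimp-1 (PRDM1). In C. elegans it is known for its roles in epidermal development, in the timing of larval events under the heterochronic pathway, and in the migration of the gonadal distal tip cells. It recognises a short A-rich site, for which the letters AAAGTGAAA were used here. Most promoters in this compact genome lie close to the start of the gene, and sequence farther upstream can hold distal regulatory elements.

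The sequences below come from 11 of the 15 strongest members matched in both replicates and from cutl-28, and are shown because they are strong peaks whose summits read differently. The other 4 of the 15, upstream of gpdh-3, hpo-2, Y65B4BL.1 and nhr-85, are described by their values without sequence. Each is 151 bases centred on the summit, read 5′ to 3′ on the strand of the target gene from the RefSeq genome of build WBcel235 (ce11). Capitals mark matches to AAAGTGAAA with at most 1 mismatch, on either strand, so that TTTCACTTT is an exact match on the opposite strand. Exact matches stood upstream of R07G3.8, C33A12.3 and T26C5.2. In C33A12.3 a near match stood beside the exact one, and in dpy-27 a pair of near matches overlapped.

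F52E1.2, chrV:8409651-8409801, plus strand: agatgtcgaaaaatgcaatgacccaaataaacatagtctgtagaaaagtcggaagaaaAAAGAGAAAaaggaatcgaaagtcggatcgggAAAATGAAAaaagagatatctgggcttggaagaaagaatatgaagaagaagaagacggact
R07G3.8, chrII:7621610-7621760, minus strand: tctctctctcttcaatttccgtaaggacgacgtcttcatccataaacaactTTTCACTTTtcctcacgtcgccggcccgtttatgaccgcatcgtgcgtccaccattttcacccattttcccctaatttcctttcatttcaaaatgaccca
C33A12.3, chrIV:9513595-9513745, minus strand: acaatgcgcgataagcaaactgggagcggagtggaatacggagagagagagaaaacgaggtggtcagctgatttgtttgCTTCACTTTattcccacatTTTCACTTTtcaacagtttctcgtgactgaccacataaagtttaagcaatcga
dpy-27, chrIII:3820272-3820422, minus strand: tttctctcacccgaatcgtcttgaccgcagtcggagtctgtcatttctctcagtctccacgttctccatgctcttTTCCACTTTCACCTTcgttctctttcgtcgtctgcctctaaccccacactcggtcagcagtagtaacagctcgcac
T26C5.2, chrII:9232623-9232773, plus strand: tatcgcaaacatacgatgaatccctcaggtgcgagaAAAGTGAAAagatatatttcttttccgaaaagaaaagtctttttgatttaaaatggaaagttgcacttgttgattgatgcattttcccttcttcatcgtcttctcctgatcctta
perm-5, chrIV:5704059-5704209, minus strand: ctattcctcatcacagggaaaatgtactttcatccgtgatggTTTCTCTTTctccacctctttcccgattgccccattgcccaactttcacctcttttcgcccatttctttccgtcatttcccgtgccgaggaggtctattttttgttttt
cnt-2, chrIII:10653593-10653743, plus strand: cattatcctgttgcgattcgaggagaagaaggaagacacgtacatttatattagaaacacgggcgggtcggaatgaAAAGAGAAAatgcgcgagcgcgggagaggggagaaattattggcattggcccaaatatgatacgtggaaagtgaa
mans-2, chrV:11986544-11986694, minus strand: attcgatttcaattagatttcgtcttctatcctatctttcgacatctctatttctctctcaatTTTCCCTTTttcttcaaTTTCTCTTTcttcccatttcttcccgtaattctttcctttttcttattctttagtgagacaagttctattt

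The next set shows the 3 strongest members with no such match, followed by a cuticlin-like gene that also had none. Here the capitals mark the letters GAGAGAG or their reverse complement CTCTCTC, where present. The noah-2 summit, the strongest of all 853, held a long CT run, and the B0546.4 summit held the repeat once on each strand. The EGAP1.1 and cutl-28 summits held neither the motif nor the repeat.

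noah-2, chrIV:14089802-14089952, plus strand: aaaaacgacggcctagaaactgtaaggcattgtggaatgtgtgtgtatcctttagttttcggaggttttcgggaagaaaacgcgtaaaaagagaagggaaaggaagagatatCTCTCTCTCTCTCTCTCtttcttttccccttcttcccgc
EGAP1.1, chrIII:5938038-5938188, minus strand: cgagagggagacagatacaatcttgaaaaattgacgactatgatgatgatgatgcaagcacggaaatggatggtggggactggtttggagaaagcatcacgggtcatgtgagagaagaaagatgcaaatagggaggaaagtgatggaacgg
B0546.4, chrIV:3384730-3384880, minus strand: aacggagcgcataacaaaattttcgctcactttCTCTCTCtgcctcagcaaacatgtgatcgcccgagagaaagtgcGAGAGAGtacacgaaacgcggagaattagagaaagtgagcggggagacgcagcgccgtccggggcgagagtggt
cutl-28, chrIV:683174-683324, plus strand: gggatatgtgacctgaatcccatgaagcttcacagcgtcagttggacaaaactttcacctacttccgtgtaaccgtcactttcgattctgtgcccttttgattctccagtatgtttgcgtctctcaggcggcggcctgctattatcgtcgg

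The member zone, all autosomal intergenic sequence that a summit could occupy to qualify, covered 5.77 Mb or 6.99% of the autosomes. It held 147.8 summits per Mb (95% Poisson interval 138.0 to 158.0), against 84.3 (82.4 to 86.3) over whole autosomes, a ratio of 1.75. The same rule applied to the 8751 strongest peaks of each replicate gave 822 summits in replicate 1 and 840 in replicate 2, with ratios of 1.70 and 1.73. Sequence within 500 bp of a start held 325.9 summits per Mb, sequence beyond 1500 bp held 125.3 and the same zone on X held 126.6 (110.0 to 145.0). These intervals cover counting error over peaks and not the spread between animals.

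Within the zone the density did not fall steadily with distance. Summits were most frequent at 100 to 200 bp from the start, with 532.0 per Mb, and the density dropped to 115.6 per Mb (93.9 to 140.9) at 500 to 600 bp. It then stood at 194.7 per Mb (158.7 to 236.3) at 1000 to 1100 bp. In wider steps, the optimal list held 124.4 summits per Mb (109.3 to 141.1) from 500 to 750 bp and 178.3 (155.6 to 203.5) from 1000 to 1250 bp. The corresponding values were 116.8 (102.2 to 132.9) and 166.2 (144.3 to 190.6) in replicate 1, and 121.4 (106.5 to 137.8) and 177.5 (154.9 to 202.6) in replicate 2. In all 3 lists the intervals of the near and the farther step did not overlap, but the optimal list was made from the same replicates. In the optimal list these were the steps of lowest and highest density. Its steps from 750 to 1000 bp and from 1250 to 1500 bp held 138.1 (120.1 to 158.1) and 169.4 (145.4 to 196.3). Just past the zone, at 1500 to 1600 bp, the optimal list held 125.0 per Mb (91.8 to 166.2).

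**Figure D1:**
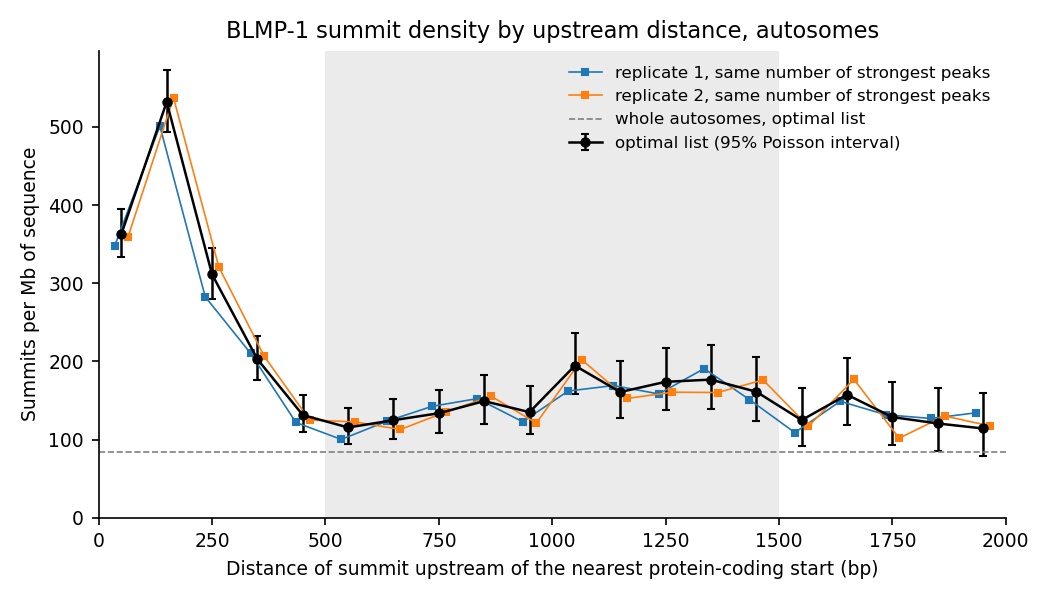
Summits per Mb of eligible autosomal sequence (vertical axis) against distance upstream of the nearest protein-coding start in steps of 100 bp (horizontal axis), for the optimal list with 95% Poisson intervals and for the 8751 strongest peaks of each replicate. The shaded zone from 500 to 1500 bp holds the members, with a low of 115.6 per Mb at its near edge and 194.7 per Mb at 1000 to 1100 bp, and the dashed line is the density of whole autosomes, 84.3 per Mb.

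Members were unevenly spread over the autosomes. The zone held 210.8 summits per Mb on chromosome III (175 members), 191.6 on I (171), 166.5 on II (193), 115.4 on IV (138) and 103.9 on V (176). Whole chromosomes ran in nearly the same order, with 99.4 summits per Mb on III, 91.6 on I, 99.5 on II, 72.5 on IV and 67.9 on V. The gene on the far side of the summit was transcribed away from it in a divergent arrangement for 394 members (159.1 per Mb, 143.8 to 175.6) and in the same direction as the target for 458 (139.1 per Mb, 126.7 to 152.5), and these intervals overlapped. Another summit of the optimal list lay within 1000 bp of 295 members (34.6%), against 27.8% of all optimal peaks. The share was 38.5% of the X set, 32.6% of the summits beyond 1500 bp and 15.4% of those within 500 bp of a start.

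Peak signal is the value of the authors' caller on a scale that is not given, so it serves only to rank peaks within a list. The members' signal ran from 62.0 to 2223, with a median of 144.4 and quartiles of 95.3 and 264.5, against a median of 147.4 over all optimal peaks. Of the members, 418 (49.0%) ranked in the upper 50% of the optimal list. The members were thus spread over the whole range of strength and did not gather at its weak end. The zone held 2237 peaks of the pooled list, of which 38.1% entered the optimal list, against 29.2% of all pooled peaks, 54.7% within 500 bp of a start and 32.3% beyond 1500 bp.

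A member was counted as matched when a summit lay within 100 bp among the 8751 strongest peaks of both replicates. This held for 625 members (73.3%, exact 95% interval 70.2 to 76.2), against 75.2% of all optimal peaks. Replicate 2 alone matched a further 151 (17.7%) and replicate 1 alone 64 (7.50%), which left 13 (1.52%) that matched neither. Among all peaks of the full lists, which held 27310 and 30000, 781 members (91.6%) had a summit in replicate 1 and 832 (97.5%) in replicate 2. The median offset of the summit was 8 bp from replicate 1 and 4 bp from replicate 2. The matched share rose with signal. With members split by signal into 4 groups of 213 or 214, 97.2% of the strongest matched in both replicates and 31.8% of the weakest. This rise is partly built in, because a match required a place among the 8751 strongest peaks of each replicate. Against the full lists 89.4% of members matched in both. Since the optimal list was made from these replicates, the matches describe it and are no independent test.

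Over the 763 members present in both full lists, the signals of the replicates had a Spearman rho of 0.705, given as a description across peaks of the same libraries. Some strong members ranked far apart. T26C5.2, which ranked 67 in the optimal list, ranked 274 in replicate 1 (signal 280.6) and 44 in replicate 2 (1097). F52A8.1 ranked 1311 in replicate 1 (123.3) and 142 in replicate 2 (752.9). In the other direction, hlh-33, a basic helix-loop-helix gene, ranked 77 in replicate 1 (463.5) and 623 in replicate 2 (359.6).

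**Figure D2:**
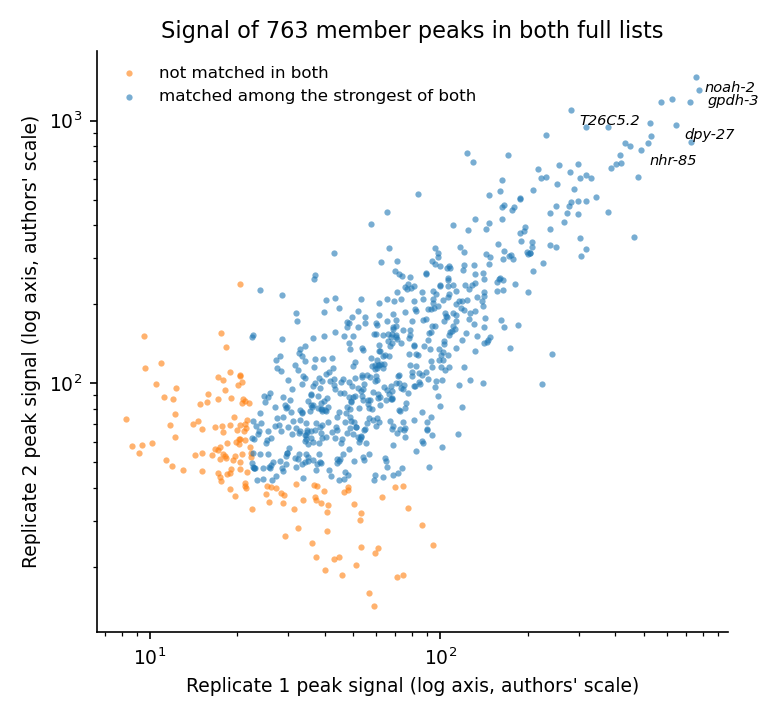
Peak signal in replicate 1 (horizontal, log axis) and replicate 2 (vertical, log axis), on the authors' scale, for the 763 members with a summit in both full lists, coloured by whether they matched among the 8751 strongest peaks of both. The strongest members such as noah-2 and gpdh-3 are high in both replicates, T26C5.2 is relatively high in replicate 2, and the unmatched members lie towards the low end of at least 1 replicate.

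The matched share of members was 4.12 points below that of summits within 500 bp (77.4%), a difference that missed the threshold of 0.05 (Fisher's exact test, two-sided, p = 0.0209, adjusted p = 0.0628 over 6 tests). With summits required to lie within 50 bp the difference, members minus those summits, was -7.04 points, past the threshold (Fisher's exact test, adjusted p = 5.84e-04). In the stronger peaks it was 0.431 points in the opposite direction (Fisher's exact test, adjusted p = 0.951). Against summits beyond 1500 bp (72.8%) and X summits of the same distance (76.4%) the adjusted p of the same exact test was 0.836 and 0.569.

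The strongest member lay 1377 bp upstream of noah-2, a gene for a matrix protein on the apical face of the epidermis. Its rank was 9 in the optimal list with a signal of 2223. Its ranks in the single replicates were 10 (replicate 1, signal 759.1) and 15 (replicate 2, signal 1463), and the next gene behind it was 5182 bp away. The second strongest lay 1388 bp upstream of gpdh-3, a glycerol-3-phosphate dehydrogenase gene on chromosome I (signal 2066). It ranked 9 in replicate 1 (776.2) and 23 in replicate 2 (1302). Both summits stood near the far end of the zone and ranked in the first 25 of each replicate.

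F52E1.2 followed at 869 bp with a signal of 1880, ranking 14 in replicate 1 and 30 in replicate 2. R07G3.8, at 1172 bp with a signal of 1827, ranked 20 and 28 in replicates 1 and 2. C33A12.3, at 668 bp with a signal of 1714, ranked 28 and 31. These 3 summits were therefore of like rank in both replicates.

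The member 668 bp upstream of dpy-27 had a signal of 1585 and ranked 17 in replicate 1 (647.4) and 72 in replicate 2 (966.1). DPY-27 is a condensin subunit of the dosage compensation complex, which acts on X, while the gene itself is on chromosome III. This peak was among 114 members (13.4%) whose peak interval touched a gene although the summit did not. EGAP1.1 at 893 bp had a signal of 1489, and its divergent neighbour, the polyubiquitin gene ubq-1, lay 2141 bp on the other side of the summit. B0546.4 at 658 bp had a signal of 1409 and a divergent neighbour, mai-2, 1105 bp away.

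A single divergent gap on chromosome I held a pair of these strong members. One lay 588 bp upstream of hpo-2, with its summit at 13066036 and a signal of 1536, and it ranked 12 in replicate 1 (728.7) and 101 in replicate 2 (831.4). The other lay 731 bp upstream of nhr-85, with its summit at 13062853 and a signal of 1273, and ranked 65 in replicate 1 (489.9) and 127 in replicate 2 (771.6). NHR-85 is a nuclear hormone receptor of the heterochronic pathway. Each summit lay far nearer to its own target than to the gene across the gap, since nhr-85 was 3914 bp from the first and hpo-2 was 3771 bp from the second.

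The remaining members among the 15 strongest matched in both replicates had signals from 1242 to 1378. They lay upstream of T26C5.2 (525 bp), Y65B4BL.1 (1447 bp), perm-5 (666 bp), cnt-2 (1350 bp) and mans-2 (1135 bp). PERM-5 is needed for the permeability barrier of the eggshell, CNT-2 is an Arf GTPase-activating protein and mans-2 encodes a mannosidase. The replicates placed cnt-2 at ranks 206 (replicate 1) and 74 (replicate 2), and perm-5 at 132 and 75.

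At the limits of the rule, the member nearest to 500 bp was spl-2 at 501 bp (signal 346.6), and the summit just outside was that of T25D3.4 at 499 bp (167.2). At the far limit, Y47G6A.7 at 1499 bp (382.7) was inside and mfb-1 at 1503 bp (227.9) outside. Within 50 bp of the near limit 44 summits were inside and 50 outside, and at the far limit 25 were inside and 29 outside.

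A match to AAAGTGAAA with at most 1 mismatch, on either strand and within 75 bp of the summit, was present in 293 members (34.3%, 31.2 to 37.6), against 32.0% of all optimal peaks. Windows of the same 151 bases centred 500 bp away held a match in 23.4% (20.6 to 26.4) on the side of the gene and 20.5% (17.9 to 23.4) on the far side. The summit share was higher than either (McNemar's exact test over members, two-sided, p = 7.32e-07 and p = 1.89e-10), a test that covers counting error over peaks. Exact matches were present in 57 members (6.68%, 5.10 to 8.57), against 1.41% and 1.17% in the flanks. Over all optimal peaks the exact shares were 5.42% at the summit and 1.02% and 1.23% in the gene-side and far flanks. The excess of exact matches at the summit was thus not particular to members. The rule on replicate 1 gave 33.7% with at most 1 mismatch and on replicate 2 gave 32.5%.

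Within the window searched, the best match lay a median of 26 bp from the summit, and 144 of the 293 (49.1%) had it within 25 bp. In the flank windows, measured from their own centres, the median was 32 bp on the gene side and 28 bp on the far side, and 37% and 46.3% lay within 25 bp. These distances are bounded by the window and were not tested. A second match stood in 63 members, 8 had at least 3, and the most was 4. In steps of 25 bp along the upstream sequence, the share of members with a match peaked at 10.3% centred 25 bp on the far side of the summit.

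**Figure D3:**
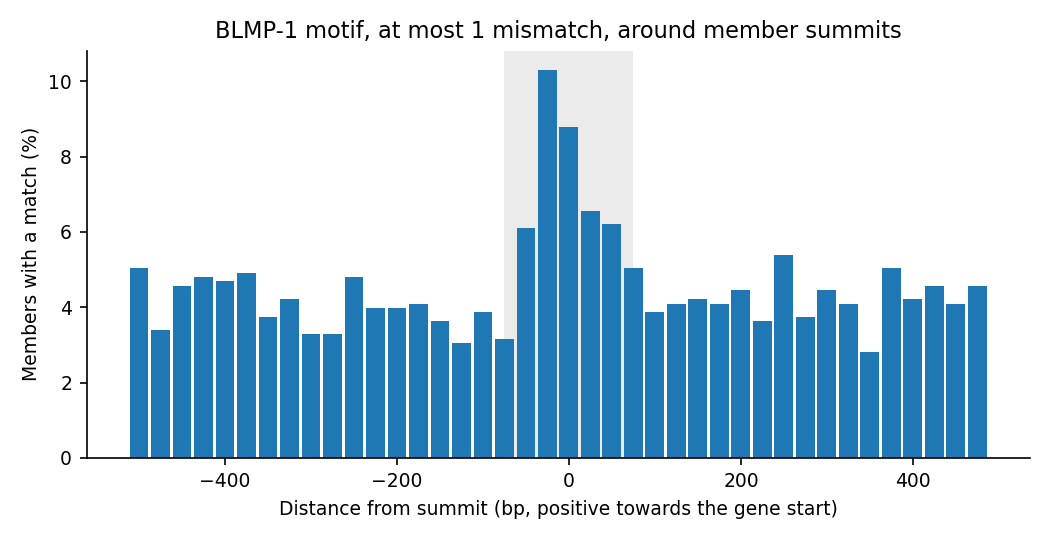
Percentage of the 853 members with a match to the BLMP-1 motif AAAGTGAAA, at most 1 mismatch on either strand, in bins of 25 bp (vertical axis) against distance from the summit with positive values towards the gene start (horizontal axis). The shaded window of 75 bp on each side is the one searched, and the highest bar, 10.3%, is centred 25 bp on the side away from the gene.

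Motif share was highest among the strongest members, and its interval there lay above those of the other groups. It was 49.8% (42.9 to 56.7) in the strongest of the 4 groups by signal, 32.4% (26.2 to 39.1) in the second, 26.8% (20.9 to 33.2) in the third and 28.5% (22.6 to 35.1) in the weakest. Of the 50 strongest members 35 had a match and 8 an exact one. These groups were not counted for the other sets. Among peaks in the upper 50% of the optimal list, members had the motif in 40.7% of cases. There, members minus summits beyond 1500 bp was -0.95 points (Fisher's exact test, adjusted p = 0.951). The same difference was 2.21 points against X summits of the same distance and 10.1 points against summits within 500 bp. By distance from the start the share was 32.4% at 500 to 750 bp, 33.2% at 750 to 1000 bp, 35.7% at 1000 to 1250 bp and 36.7% at 1250 to 1500 bp, with overlapping intervals.

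Members had the motif more often than summits within 500 bp of a start. That share was 26.4% (24.5 to 28.4), which is 7.93 points lower (Fisher's exact test, two-sided, adjusted p = 1.51e-04). The flanks of those summits also held fewer matches, 14.9% on the gene side and 17.7% on the far side, and their part in the difference was not tested. The gene-side window of those summits is centred at or past the start, and that of members upstream of it, so the 2 are unlike sequence. Against summits beyond 1500 bp (37.5%) the difference, members minus those summits, was -3.11 points (Fisher's exact test, adjusted p = 0.328). In the list of replicate 1 alone, without replicate 2, it was -4.97 points (Fisher's exact test, adjusted p = 0.0429). Against X summits of the same distance (31.7%) they were 2.62 points higher (Fisher's exact test, adjusted p = 0.616).

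A GA repeat also stood at the summits far more often than beside them. GAGAGAG, the core of a GA repeat, was present without mismatch in 147 members (17.2%, 14.8 to 19.9) and in 2.46% (1.53 to 3.74) of each flank. In the lists of the single replicates the share was 16.1% in replicate 1 and 18.9% in replicate 2. It was 23.9% (18.4 to 30.3) in the strongest of the 4 signal groups and 13.6% (9.27 to 18.9) in the weakest. Summits within 500 bp of a start held it in 11.5% of cases, those beyond 1500 bp in 20.2%, the X set in 13% and all optimal peaks in 14.3%.

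Both the GA repeat and the motif were present in 43 members, the repeat without the motif in 104, the motif without the repeat in 250 and neither in 456. Members with the repeat had the motif in 29.3% of cases, near the 34.3% of all members. The letters GATAAG, which GATA factors bind, were present in 15% of members against 6.57% and 7.03% of the gene-side and far flanks. AGGTCA, a half-site of nuclear receptors, was present in 9.38% against 4.22% and 3.05%, and the E-box CACGTG in 6.21% against 3.17% and 3.05%. Over all optimal peaks the summit shares were 13%, 8.96% and 5.47%. The exact intervals of summit and flanks did not overlap for any of these letters. The summit windows of members also held more C and G, 22.8% and 18.3% on the target gene's strand. The gene-side windows held 17.4% and 14.7%, and the far windows 17.3% and 16.6%. The part of this base composition in the letter shares was not tested. None of the 5 sets of letters was present in 317 members (37.2%), and a match or its absence describes these letters in this window and does not show that a factor bound there.

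**Figure D4:**
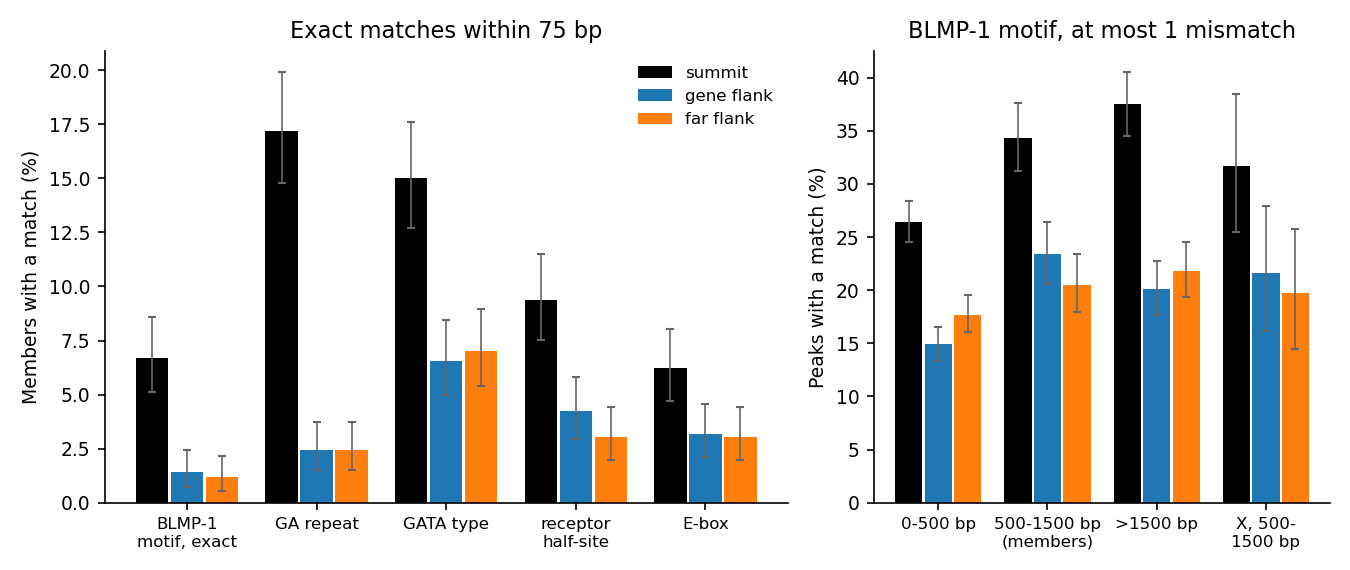
Left, percentage of the 853 members with an exact match within 75 bp of the summit (black) and in windows 500 bp towards the gene (blue) and away from it (orange) for the BLMP-1 motif, the GA repeat, the GATA-type site, the nuclear receptor half-site and the E-box. Right, percentage of peaks with the BLMP-1 motif at no more than 1 mismatch by upstream distance, with exact 95% intervals throughout; the GA repeat reaches 17.2% at summits against 2.46% in each flank, and the motif 34.3% in members against 26.4% within 500 bp.

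The 853 members had 816 different target genes, 8.85% of the 9217 autosomal protein-coding genes with sequence in the zone. Of these, 37 genes had 2 members each and none had 3. A peak within 500 bp of a start also stood at 211 of the 816 (25.9%, 22.9 to 29.0), against 1097 of 8401 genes that had zone sequence and no member (13.1%, 12.3 to 13.8). For 373 targets (45.7%) the member was the sole optimal peak nearest to that gene. The share with a peak near the start was 15.6% among the stronger peaks and 20.4% among peaks matched in both replicates. Genes differ in how much zone sequence they have, and the part of this in these shares was not tested.

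Among genes with 2 members, the strongest belonged to gpdh-3, Y65B4BL.1, F52A8.1, swt-3 and lin-23. In these 5 the farther summit was the stronger, but over all 37 genes the farther was stronger in 19 and the nearer in 18. For gpdh-3 the summit at 531 bp had a signal of 134.8 and that at 1388 bp had 2066. For swt-3, a SWEET sugar transporter gene, the values were 243.4 at 879 bp and 838.0 at 1482 bp. For lin-23, an F-box gene that restrains cell division, they were 67 at 831 bp and 828.3 at 1040 bp. The nearer was the stronger at dpy-18, a collagen prolyl hydroxylase gene, with 405.3 at 627 bp and 98.2 at 1295 bp.

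Genes of larval timing, molting and the cuticle were counted next, each list set against the 8.85% of genes with zone sequence that had a member. The lists were small and were chosen with results of these data known, so the counts describe them. Some lists share genes, so their shares are not separate results. The gene nhr-23 counted in the heterochronic, molting and receptor lists, and nhr-85 in the heterochronic and receptor lists. In the same way ceh-16 counted in the seam and ceh lists and wrm-1 in the seam and Wnt lists. Both elt-1 and egl-18 counted in the seam and GATA lists. Because genes differ in how much zone sequence they have, members per Mb of that sequence are given beside the share for lists above the background, and are read against 147.8 over all genes.

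Of 11 heterochronic genes, which order the events of successive larval stages, 5 had a member (45.5%, exact 95% interval 16.7 to 76.6), or 515.6 per Mb (167.4 to 1203). All 5 matched in both replicates. After nhr-85 the strongest was lin-41, a regulator of messenger RNAs downstream of the let-7 microRNA, with its summit at 1486 bp, a signal of 1113, and rank 105 in replicate 1 (418.4) and 168 in replicate 2 (688.6). The others were nhr-23 at 956 bp (signal 345.4), lin-28 at 592 bp (190.6) and lin-29 at 1476 bp (149.3). NHR-23 is a nuclear receptor needed for molting, LIN-28 an RNA-binding protein of early larval stages and LIN-29 a zinc-finger factor of the passage to the adult. nhr-23, lin-28 and lin-29 also had a peak within 500 bp of a start, and nhr-85 and lin-41 did not. The member of nhr-23 ranked 5108 in replicate 1 (43.0) and 794 in replicate 2 (312.3).

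Of 17 molting and apical matrix genes, 8 had a member (47.1%, 23 to 72.2), with 10 members in all, or 728.4 per Mb (349.3 to 1340). After noah-2 the strongest was grh-1, the Grainyhead factor of the epidermis, at 1037 bp with an exact motif 3 bp from the summit. Its signal was 444.5, and it ranked 1037 in replicate 1 and 808 in replicate 2. The next by signal were nhr-23, mlt-8 (289.0), noah-1 (274.8 and 117.1), mlt-11 (246.9 and 149.7), let-653 (189.1) and lrp-1 (77.7). MLT-11 is a protease inhibitor of the molting cuticle, LET-653 a matrix protein and LRP-1 a lipoprotein receptor needed for molting. The pair of summits at noah-1 lay in a single peak interval, the one such case among the members. Neither they nor the pair at mlt-11 had a summit within 100 bp in the full list of replicate 1, while replicate 2 ranked them 1448, 3114, 1183 and 3962. By summit distance these 4 were thus matched in replicate 2 alone, and overlap with peak intervals of replicate 1 was not examined.

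Cuticle collagens, the main structural proteins of the cuticle, had a member in 13 of 72 genes (18.1%, 9.98 to 28.9), or 338.1 per Mb (184.8 to 567.3). The strongest stood at col-65 (signal 428.9), rol-6 (418.4) and col-95 (379.1). These and the members at col-42 (305.8), rol-8 (171.4) and col-150 (152.2) matched in both replicates. None of the collagen members with a signal below 152.2 did. The rol-6 summit ranked 1884 in replicate 1 (98.2) and 801 in replicate 2 (312.0). The col-95 summit, with an exact motif 6 bp from it, ranked 377 (242.5) and 3279 (129.1), the reverse order. Cuticlins, insoluble cuticle proteins, had a member in 6 of 23 (26.1%, 10.2 to 48.4). Per Mb of zone sequence they had 305.3 (112.0 to 664.4), an interval that includes the 147.8 of all genes. Their strongest was cutl-28 with a signal of 917.4, rank 739 in replicate 1 (171.0) and 147 in replicate 2 (739.1), followed by cutl-2 (338.5) and cut-2 (325.5).

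Patched-related genes, which encode multipass membrane proteins, had a member in 8 of 22 (36.4%, 17.2 to 59.3), or 428.5 per Mb (185.0 to 844.3). The strongest were ptr-2 (614.4), ptr-13 (305.2) and ptr-25 (278.8). Hedgehog-related genes had a member in 1 of 32 (3.12%, 0.0791 to 16.2), at grd-6 (188.2). Factors of the seam and epidermis had a member in 5 of 12 (41.7%, 15.2 to 72.3), or 563.4 per Mb (206.8 to 1226), but these were weak. The strongest was ceh-16, the engrailed homolog, with a signal of 144.4. It was the single one matched in both replicates. The next were eff-1, the epidermal fusogen, with 116.1, and wrm-1, a beta-catenin, with 89.0.

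Nuclear hormone receptors had a member in 23 of 184 genes (12.5%, 8.09 to 18.2), or 209.3 per Mb (135.5 to 309.0). After nhr-85 the strongest were nhr-5 (385.8) and nhr-23. Homeobox genes named ceh had one in 4 of 31, or 184.5 per Mb (50.3 to 472.4), led by ceh-20, a Pbx homolog (513.7), then ceh-58 (150.5). GATA factors and relatives had one in 3 of 6, or 725.5 per Mb (149.6 to 2120), at egl-27 (159.5), elt-1 (65.2) and egl-18 (63.4). The last pair was close to the weakest signal of the optimal list, 62.0. T-box genes had none in 15, which allows a share of up to 21.8%, bZIP genes 1 in 17 (atf-8, 66.2) and bHLH genes 1 in 15 (hlh-33, 826.6). Forkhead genes had 1 in 9 (fkh-7, 69.8), or 127.1 per Mb (3.22 to 708.4), and Sox genes 0 in 1. The per-Mb intervals of the receptor, ceh and forkhead lists include the 147.8 of all genes.

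Among signalling genes, the Wnt pathway had a member in 3 of 20, at kin-19 (252.4), wrm-1 and lin-44 (67.9). Per Mb of zone sequence Wnt genes had 232.3 members (63.3 to 594.9), an interval that includes the 147.8 of all genes. The joint list of Sma/Mab and TGF-beta genes had 1 of 13 (sma-3, 82.0) and the guidance list 1 of 14 (vab-1, 67.6). Neuropeptide genes had 2 of 56, nlp-24 (67.5) and nlp-8 (63.6), and insulin-like genes 1 of 30 (ins-4, 91.2). Except for kin-19, the members of these lists had signals below the members' lower quartile of 95.3.

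Chemoreceptor and C-type lectin genes stood at the other extreme, with the whole interval of their share below 8.85%. Chemoreceptor genes had one in 6 of 762 (0.787%, 0.289 to 1.71), the strongest at srh-17 (468.1), srh-76 (387.8) and srdh-1 (192.2). The srh-76 summit lay 849 bp from the receptor start and 151 bp from the end of let-418, a Mi-2 chromatin remodeller gene transcribed in the same direction. C-type lectin genes had 0 of 130, which allows up to 2.80%, F-box A genes 2 of 77 (fbxa-167, 120.3, and fbxa-116, 63.1), ribosomal protein genes 1 of 20 (rps-25, 227.4) and proteasome genes 0 of 4. The intervals of the F-box A (0.316 to 9.07), ribosomal (0.127 to 24.9) and proteasome (0 to 60.2) shares include the 8.85% of all genes. Few ribosomal and proteasome genes had any sequence in the zone, 20 of 77 and 4 of 33.

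**Figure D5:**
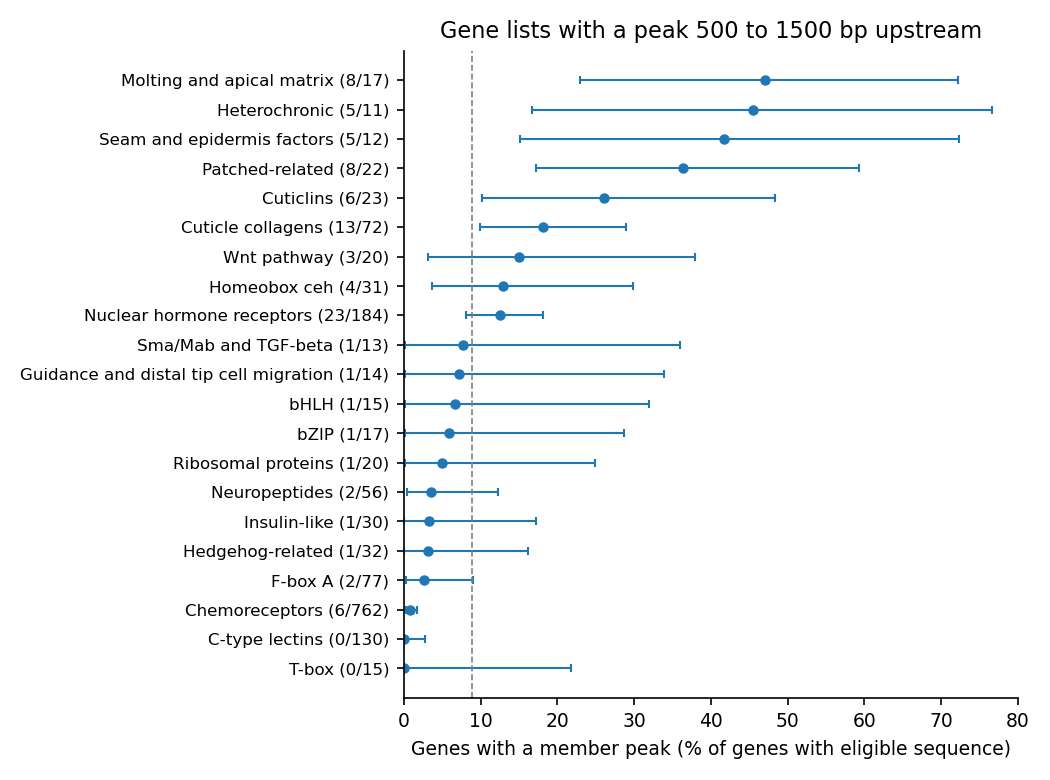
Percentage of the genes with sequence in the zone that had a member (horizontal axis, points) with exact 95% intervals, for the gene lists with at least 10 such genes; the counts stand in brackets beside each name. The dashed line is the share over all autosomal protein-coding genes, 8.85%, and the molting, heterochronic, epidermal, patched-related, cuticlin and collagen lists lie above it with their whole interval (per Mb of zone sequence the cuticlin interval, 112.0 to 664.4, includes the overall 147.8), while chemoreceptors and C-type lectins lie below it.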

How the data were processed

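ChIP-seq peaks of eGFP-tagged BLMP-1 in L1 larvae were available as lists of peaks for 2 biological replicates, for both pooled, and as an optimal list. The authors called peaks against a control, per the file listings, and ran an irreproducible discovery rate (IDR) analysis on them to obtain the optimal list. For the aligner, the peak caller and the IDR cut-off, names and values were not given in the sources used here. Each peak's deposited signal is the authors' value, on a scale not given, and served for ranking, description and filtering. As deposited, the −log10 q-value was at its maximum in 38.5% of the members and was not tested. The deposited summit offset, in bp, gave the summit as start plus offset. Depth is unknown, since no read counts entered, and precision per sample cannot be given. Intervals cover counting error over peaks, and peaks are not replicates.

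Only the ce11 lists were used, with Ensembl release 115 gene models of WBcel235 and the RefSeq genome of the same assembly. Positions are 1-based. A summit matched a replicate within 100 bp among its 8751 strongest peaks. Motifs were sought on both strands within 75 bp of the summit and in windows centred 500 bp to each side. Fisher's exact tests, two-sided, compared the motif share and the matched share with 3 other sets, with Benjamini-Hochberg adjustment over the 6 tests at 0.05. McNemar's exact test compared summit and flank. Densities carry 95% Poisson intervals and shares 95% Clopper-Pearson intervals. The functions were tested on simulated data. Alternatives were other distances, annotation, windows, matching distances, the stronger peaks, the peaks that both replicates matched, and the list of a single replicate. Removal of the 29 members within 1000 bp of small structural RNA genes (rRNA, tRNA, snoRNA and snRNA) was added after seeing the data. The members, motifs and 25 gene lists were chosen with earlier results of these data known. Named were the 15 strongest members matched in both replicates, the 5 genes with the most and strongest members, the 3 strongest of each list, the summits at the limits and the 3 strongest members without the motif. Other genes of a list, dpy-18 and the members set side by side for unlike ranks were chosen after their values were seen. Sequences are those of the 12 strongest named members off chromosome I. Computation used Python 3.11.15, numpy 2.4.6, scipy 1.17.1, pandas 2.3.3 and matplotlib 3.10.9.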

Additional observations from a re-analysis of the deposited data

How the results depend on the processing

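Of 79 alternative values for 12 results, 64 kept their direction and side of the threshold or moved within the spread set for them. The number of members fell to 418 in the stronger peaks. The share matched in both replicates was 65.4% within 50 bp, 76.8% within 200 bp, 89.4% against the full lists and 95.2% among the stronger peaks. The motif share was 6.68% for exact matches, 27% within 50 bp, 39.5% within 100 bp and 40.7% among the stronger peaks. The matched share against summits within 500 bp changed sign among the stronger peaks (0.431 points, members higher) and passed the threshold with matches within 50 bp (-7.04 points, Fisher's exact test, adjusted p = 5.84e-04). Against summits beyond 1500 bp the matched share changed sign with matches within 50 bp (-1.31 points). For both changes of sign the cause was not tested. The motif difference from summits beyond 1500 bp was -4.97 points without replicate 2, past the threshold (Fisher's exact test, adjusted p = 0.0429), and -3.50 points without replicate 1. The share of targets with a second peak near the start was 15.6% among the stronger peaks and 20.4% among peaks matched in both replicates, where fewer peaks were counted by construction. The motif difference from summits within 500 bp kept its direction and call in all 8 alternatives run for it. No paired analysis was possible because there is 1 group. Depth is unknown, so weak peaks missing from a replicate cannot be read as absent.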

Other observations

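The motif and the GA repeat were not evenly placed on the strands. Among members with AAAGTGAAA at no more than 1 mismatch, 93 had it on the strand of the target gene only, 188 on the opposite strand only and 12 on both. Of those with it on a single strand, 66.9% had it on the opposite strand. Over all optimal peaks this was 64.9% (923 on the gene strand and 1708 on the opposite strand), so the uneven split was not particular to members. In the same windows 500 bp towards the gene the counts were 79, 110 and 11, and in the windows 500 bp away they were 64, 101 and 10. Exact matches were on the gene strand in 16 members and on the opposite strand in 41. In replicate 1 the corresponding counts of exact matches were 16 and 32, and in replicate 2 they were 14 and 40. GAGAGAG was on the gene strand only in 50 members and on the opposite strand only in 92 (64.8% opposite), against 433 and 770 over all optimal peaks (64%). Summits within 500 bp of a start had the motif on the gene strand only in 143 cases and on the opposite strand only in 356, and summits beyond 1500 bp in 145 and 220.

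On the strand of the target gene, the 151 bases around member summits were 26.7% A, 22.8% C, 18.3% G and 32.3% T, so T exceeded A and C exceeded G. The gene-side windows held 31.6% A and 36.2% T, and the far windows 32.3% A and 33.8% T. The part of this base composition in the strand counts was not tested.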
